A study of Oryza sativa with 16 samples.

Results

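The 6 genes described here encode subunits of the heterotrimeric G protein of rice (Oryza sativa). They are RGA1 (OS05G0333200, alpha), RGB1 (OS03G0669200, beta), RGG1 (OS03G0635100, gamma), RGG2 (OS02G0137800, gamma), DEP1 (OS09G0441900, atypical gamma) and GS3 (OS03G0407400, atypical gamma). They were chosen by identifier for this known function, and all 6 are among the 34301 identifiers of the authors' table. The names of RGA1, RGB1 and RGG1 are listed in the NCBI gene table on the chromosome that the identifier gives, and those of RGG2, DEP1 and GS3 rest on general knowledge of the identifiers.

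RNA came from the dissected shoot tip, where the apical meristem forms the panicle, of wild type (WT) plants and of the d1-1 mutant of RGA1, called d1. Meristems were collected during panicle initiation at stages numbered 1, 2, 4 and 7, whose meaning the labels do not define, from greenhouse plants aged 3 months that had no treatment named in the labels. Each of the 8 groups had 2 libraries, 16 in all, but the authors' table gives 1 FPKM value (fragments per kilobase of transcript, scaled to the library total) per group. The values below are therefore the authors' combined values without SD or n, and the depth behind them is unknown. All mutant groups carry the same d1-1 allele, whose genetic background the sources used here do not give.

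A heterotrimeric G protein couples receptors at the plasma membrane to responses inside the cell. The alpha subunit binds and hydrolyses GTP, and the beta and gamma subunits act together as a dimer that the gamma subunit anchors to the membrane. In rice, loss of RGA1 gives dwarf plants with short grains, DEP1 alleles alter panicle erectness and grain number, and GS3 restricts grain length. RGG1 and RGG2 are short gamma subunits, whereas DEP1 and GS3 have long cysteine-rich tails.

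The tissue label was checked first. OSH1, a KNOX homeobox gene that marks the shoot meristem, reached 354, 468, 476 and 234 FPKM along stages 1, 2, 4 and 7 of the wild type, and 354, 441, 478 and 251 FPKM along those of the mutant. Of 5 leaf identifiers, 2 were in the table, and their summed level was 2.81, 8.07, 1.02 and 7.14 FPKM in WT. Mutant sums were 12.1, 2.12, 3.31 and 1.72 FPKM. RBCS, the small subunit of Rubisco, was at most 0.23 FPKM, and CAB1R, a light-harvesting protein gene, made up the rest. In RNA from whole dissected tissue, fewer cells of a type and less RNA per cell cannot be told apart. Summed FPKM over all genes lay between 621238 and 670519 per column.

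RGB1, the beta subunit, was the most abundant subunit in 7 of the 8 columns and the steadiest. Its WT level was 53.2, 51.0, 48.7 and 49.3 FPKM at stages 1, 2, 4 and 7. The d1 values were 52.7, 49.1, 48.9 and 52.1 FPKM. The highest value was 1.09 times the lowest in WT and 1.08 times in d1, and the genotypes overlapped. DEP1 followed with a mean of 43.7 FPKM over the 8 columns, then RGG2 with 38.2, RGA1 with 26.0, GS3 with 8.84 and RGG1 with 1.45. In that order, neighbours had overlapping ranges over the columns in every case, so the order of the means does not hold in each column. RGB1 was above DEP1 in 7 of 8 columns, DEP1 above RGG2 in 6, and RGG2 above RGA1 in 7. GS3 was above RGG1 in 2 of 8 columns, those of stage 7, and its mean rests on these.

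**Figure D1:**
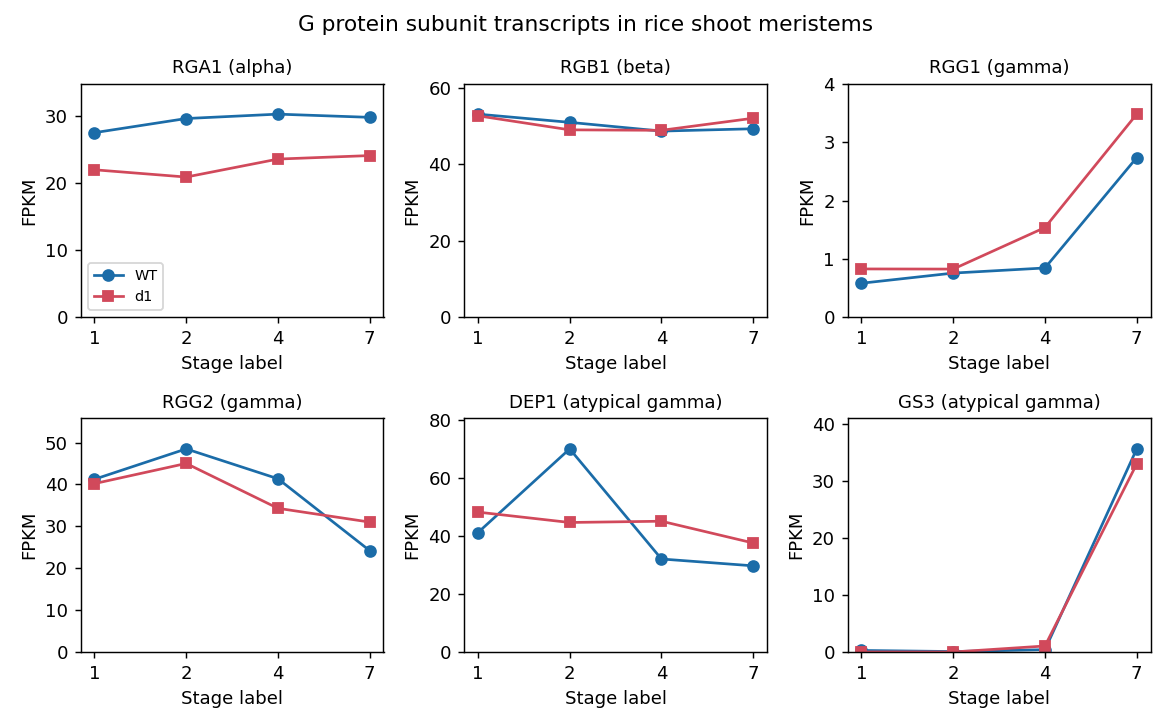
FPKM of each subunit (vertical axis, starting at 0 and scaled per panel) at stage labels 1, 2, 4 and 7 (spaced evenly) in WT (circles) and d1 (squares); each point is the authors' combined value of a group. GS3 goes from at most 1.10 FPKM to 33.0 and 35.6 FPKM at stage 7, DEP1 has its highest value in WT at stage 2, and RGA1 is lower in d1 at every stage.

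RGA1, the mutated alpha subunit gene, was still represented by transcript in d1. WT meristems held 27.5, 29.6, 30.2 and 29.8 FPKM. The mutant held 22.0, 20.9, 23.6 and 24.1 FPKM. Every d1 value lay below every WT value, which held in that direction for 3.91% of the 19757 genes tested. A limma fit over the 8 columns, with stage as a block, gave a log2 difference of -0.36 ± 0.05 (d1 minus WT on log2(FPKM + 1), moderated SE) and a 95% interval of -0.48 to -0.23. The adjusted p was 0.064, above the threshold of 0.05. It was 0.047 with the filter set at a mean of 5 FPKM, and between 0.047 and 0.29 over all settings tried. In this fit the error is how far the genotype difference varies between stages, and it does not measure the spread between plants.

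Because FPKM is scaled by length, the alpha and beta levels can be set side by side. The ratio of RGA1 to RGB1 was 0.517, 0.580, 0.621 and 0.603 along the 4 wild-type stages. The mutant ratios were 0.417, 0.426, 0.482 and 0.462. The 2 genotypes did not overlap in this ratio. This is not a second result, since RGA1 alone did not overlap either, as held in that direction for 3.91% of all genes. RGB1, its denominator, differed between them by 0.00 ± 0.04 (95% interval -0.10 to 0.11, adjusted p = 0.96, limma).

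None of the 6 subunit genes passed the threshold for d1 against WT over the 4 stages (0 of 6 by limma, 1 of 6 at an unadjusted p under 0.05). Over all genes tested, 0.243% passed, and 23.7% had an unadjusted p under 0.05. The members' median log2 difference was 0.00, beside 0.01 for all tested genes. Among all genes, 31 were higher and 17 lower in d1, a split of 84 to 23 with columns scaled to the same median and of 13 to 18 with columns scaled to the same sum. RGG1 was higher in d1 at all 4 stages, as were 17.8% of all genes, and differed by 0.25 ± 0.11 (adjusted p = 0.23, limma), or by 0.42 with a pseudocount of 0.1 (adjusted p = 0.24, limma). For RGG2, DEP1 and GS3 the sign of the difference varied between stages.

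**Figure D2:**
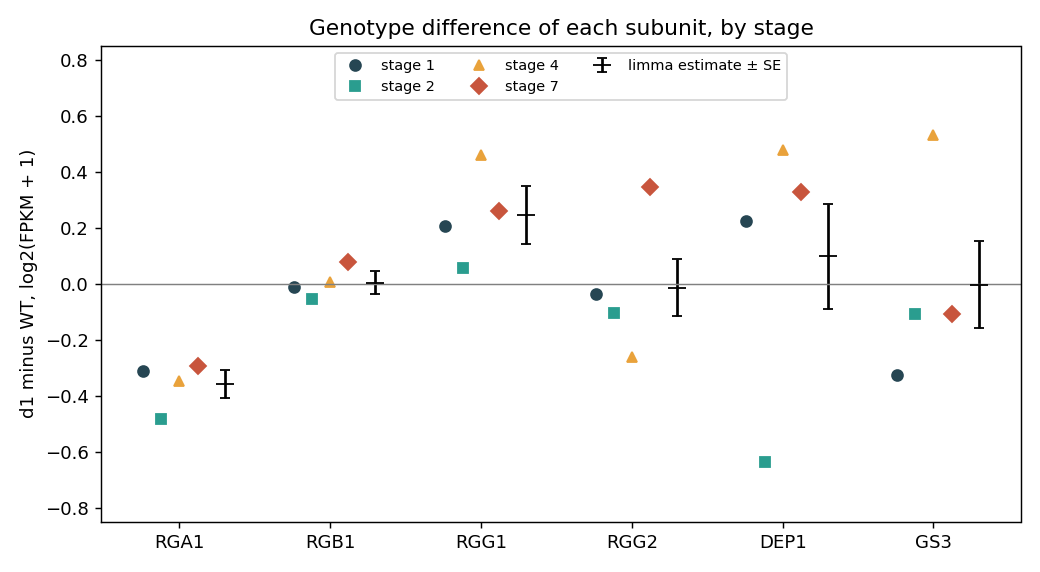
Difference d1 minus WT on log2(FPKM + 1) (vertical axis) for each subunit at stages 1, 2, 4 and 7 (coloured symbols), with the limma estimate over the 4 stages and its moderated SE (black bars). The 4 RGA1 points lie between -0.48 and -0.29, those of RGB1 lie within 0.08 of 0, and the DEP1 points run from -0.64 to 0.48.

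Of the 6 genes, GS3 had the largest change along the stage series. WT meristems held 0.32, 0.12 and 0.45 FPKM at stages 1, 2 and 4, then 35.6 FPKM at stage 7. The mutant held 0.048, 0.042 and 1.10 FPKM, then 33.0 FPKM at stage 7. Both stage 7 values stood far above all others, in WT and in d1, and the share of all genes with such a pattern was not counted. From stage 4 to stage 7 GS3 rose by 4.34 ± 0.22 on the log2 scale (95% interval 3.79 to 4.89, adjusted p = 0.0027, limma), and from stage 1 to stage 7 by 4.91 ± 0.22 (adjusted p = 0.00031, limma). Its place among the tested genes moved from percentile 1.93 at stage 4 to percentile 80.4 at stage 7 in WT, and from 6.66 to 78.2 in d1. In all stage tests here, WT and d1 serve as the 2 values per stage. The SE, interval and p of these tests therefore do not measure the spread between plants.

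Stage 4 was the earliest stage at which GS3 exceeded 1 FPKM in either genotype, with 1.10 FPKM in d1 against 0.45 FPKM in WT. This was a log2 difference of 0.53, or 1.12 with a pseudocount of 0.1, and on the first of these scales 8.67% of all genes differed by at least 0.5 in either direction at that stage. At stage 7 the level in d1 was 0.926 of that in WT. Across the 4 stages the genotype difference of GS3 was 0.00 ± 0.16 (95% interval -0.39 to 0.39, adjusted p = 0.99, limma), or -0.28 with a pseudocount of 0.1 (adjusted p = 0.73, limma). Levels below 1 FPKM carry an unknown counting error, and the pseudocount sets much of any log2 change that starts from them.

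RGG1, a short gamma subunit, also rose toward stage 7 but from and to a low level. The wild-type series was 0.59, 0.76, 0.85 and 2.74 FPKM, and the mutant series 0.83, 0.83, 1.54 and 3.48 FPKM. Both stage 7 values exceeded all earlier ones, and the share of all genes with such a pattern was not counted. The rise from stage 4 to 7 was 0.92 ± 0.15 (adjusted p = 0.038, limma) and that from stage 1 to 7 was 1.26 ± 0.15 (adjusted p = 0.0038, limma), or 2.00 with a pseudocount of 0.1. The call for stage 4 to 7 was lost with a pseudocount of 0.1 (adjusted p = 0.062, limma), without a filter on low values (0.058) and without stage 1 (0.083).

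RGG2, the other short gamma subunit, was an abundant transcript that was lower at stage 7. The wild-type series was 41.2, 48.5, 41.4 and 24.2 FPKM, and the mutant series 40.2, 45.0, 34.3 and 31.0 FPKM. Stage 2 was the highest and stage 7 the lowest in both genotypes. From stage 1 to stage 7 RGG2 fell by 0.55 ± 0.14 on the log2 scale (95% interval -0.91 to -0.19, adjusted p = 0.039, limma). The call was near the threshold: in 6 of the 8 other settings that gave a value it was lost, with adjusted p up to 0.076. Stages 2 or 4 left out gave 0.054 and 0.051.

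The fall of RGG2 was spread unevenly between the genotypes. In WT, RGG2 went from 41.4 FPKM at stage 4 to 24.2 at stage 7, a log2 change of -0.75, where 13% of all genes changed by at least 0.5. The same step in d1 was from 34.3 to 31.0 FPKM, a change of -0.14. The d1 value was thus 0.830 of the WT value at stage 4 and 1.28 times it at stage 7. With 1 value per group, this difference between the genotypes was not tested. Over the 4 stages d1 differed from WT by -0.01 ± 0.10 (95% interval -0.27 to 0.24, adjusted p = 0.94, limma), and the sign turned under other settings.

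DEP1, among the abundant subunits, had genotype differences of both signs, from -0.64 at stage 2 to 0.48 at stage 4 on the log2 scale. WT meristems held 41.3, 70.1, 32.2 and 29.8 FPKM at stages 1, 2, 4 and 7. The d1 meristems held 48.3, 44.8, 45.2 and 37.7 FPKM. The WT value at stage 2 stood above all others, and it was the only value of any subunit to exceed RGB1 in its column. WT rose by 0.75 from stage 1 to 2 and fell by 1.10 from stage 2 to 4 on the log2 scale, whereas d1 changed by -0.11 and 0.01. In WT, 9.49% of all genes changed by at least 0.5 over the first of these steps and 14.5% over the second.

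The d1 level of DEP1 was 0.638 of that in WT at stage 2, and it was 1.17, 1.41 and 1.26 times the WT level at stages 1, 4 and 7. The stage 2 log2 difference was -0.64, and 11.4% of all genes differed by at least 0.5 at that stage. These opposite signs left an overall difference of 0.10 ± 0.19 (95% interval -0.37 to 0.57, adjusted p = 0.78, limma). Without stage 2 it was 0.34 (adjusted p = 0.11, limma). Beside this, the summed leaf identifiers stood at 2.81, 8.07, 1.02 and 7.14 FPKM for WT at stages 1, 2, 4 and 7. For d1 they stood at 12.1, 2.12, 3.31 and 1.72 FPKM. The genotype with the higher leaf sum, which is nearly all CAB1R, also had the higher DEP1 value at stages 1, 2 and 4, but not at stage 7. RBCS, at most 0.23 FPKM, was higher in d1 at every stage. At stage 2, where DEP1 was higher in WT, RBCS was at 0.22 FPKM in d1 and 0.094 FPKM in WT. The part of the leaf identifiers in the DEP1 values was not tested. The spread between the 2 libraries of WT at stage 2 is not in the combined value.

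No stage step of DEP1 passed the threshold. Between stage 1 and stage 7 the log2 difference was -0.40 ± 0.27 (adjusted p = 0.31, limma), with lower values at stage 7 in both genotypes. Without stage 2, the same difference had an adjusted p of 0.025 (limma), where 5614 of the 19538 genes tested passed. This was the only 1 of 9 settings in which it passed, with adjusted p up to 0.41 (limma) in the others.

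**Figure D3:**
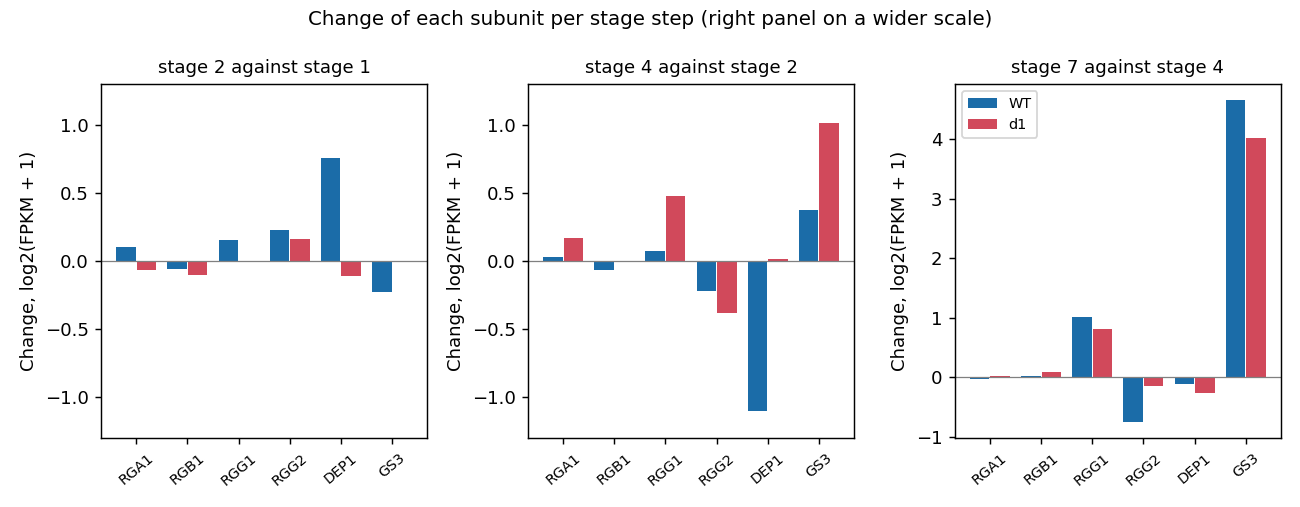
Change of each subunit on log2(FPKM + 1) (vertical axis) over each of the 3 steps in the wild type (blue bars) and the mutant (red bars), with a wider axis in the last panel. DEP1 goes up by 0.75 and then down by 1.10 in WT, where d1 changes by -0.11 and 0.01, and over the last step GS3 rises by 4.66 (WT) and 4.02 (d1).

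Over the stage series as a whole, RGG1 and GS3 changed between at least some stages (2 of 6 members by limma's F test, adjusted p = 0.010 and 0.00070), beside 21.5% of all genes. RGG2 missed the threshold at 0.054, DEP1 had an adjusted p of 0.26, RGA1 0.43 and RGB1 0.48 (limma). By step, 0 of 6 members passed from stage 1 to 2 (limma, 0 at an unadjusted p under 0.05), where 0.41% of all genes did and 10.8% had such an unadjusted p. From stage 2 to 4, 0 of 6 passed (limma, 1 at an unadjusted p under 0.05), where 6.1% of all genes did and 22.5% had such an unadjusted p. Between stages 4 and 7, 2 of 6 rose, where 1.91% of all genes rose, 377 against 389 that fell, or 490 against 317 with columns scaled to the same sum. Between stages 1 and 7, RGG1 and GS3 rose and RGG2 fell, beside 13.9% of all genes that rose and 14.2% that fell, which is a high background. RGG1 and GS3 reached 1 FPKM in both genotypes at stage 7 and otherwise only in d1 at stage 4. The filter asked for 1 FPKM in 2 columns, so neither would have been tested without stage 7, where they are high. Their rises to stage 7 are therefore not independent of the filter.

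The meristem marker OSH1 fell by 0.54 ± 0.07 between stages 1 and 7 (adjusted p = 0.0046, limma), and 2 of the 3 KNOX markers fell (OSH1 and OSH71). The third, OSH15, had a change of 0.12 ± 0.09 (adjusted p = 0.37, limma). From stage 4 to 7, where GS3 and RGG1 rose, OSH1 fell by 0.97 ± 0.07 (adjusted p = 0.0059, limma) and OSH15 by 0.84 ± 0.09 (adjusted p = 0.013, limma). OSH71 had a change of -0.33 ± 0.09 over that step (adjusted p = 0.12, limma). The part of these marker changes in the RGG2, RGG1 and GS3 values was not tested.

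The make-up of the transcripts of the 4 gamma members follows from these levels. OS08G0456600, a further atypical gamma subunit by general knowledge, is not a member and is left out of all sums and shares. It held 36.4, 23.7, 23.5 and 17.1 FPKM along the wild-type stages. Along the mutant stages it held 48.2, 37.5, 33.3 and 17.4 FPKM. The shares are therefore not those of all gamma transcripts. Summed over the 4 gamma members, the level was 83.4, 119.5, 74.8 and 92.4 FPKM along the wild-type stages. Along the mutant stages it was 89.4, 90.7, 82.2 and 105.2 FPKM. At stages 1, 2 and 4, RGG2 and DEP1 made up nearly all of the sum. RGG2 held 49.4%, 40.6% and 55.3% of the wild-type sum, and 45.0%, 49.7% and 41.8% of the mutant sum. GS3 held at most 1.33% at these stages, in d1 at stage 4.

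At stage 7 the sum was split among 3 genes. GS3 held 38.6% in WT and 31.4% in d1, DEP1 32.3% and 35.8%, and RGG2 26.2% and 29.5%. RGG1 reached its highest shares there, 2.96% and 3.31%. Among these members, GS3 was thus the most abundant in WT at stage 7 and second to DEP1 in d1, with ratios of GS3 to DEP1 of 1.20 and 0.876. RGB1 amounted to 0.534 of this sum in WT and 0.495 in d1 at this stage, within its range of 0.427 to 0.651 over all columns. With OS08G0456600 left out of the sum, this is not the ratio of beta to all gamma transcripts.

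**Figure D4:**
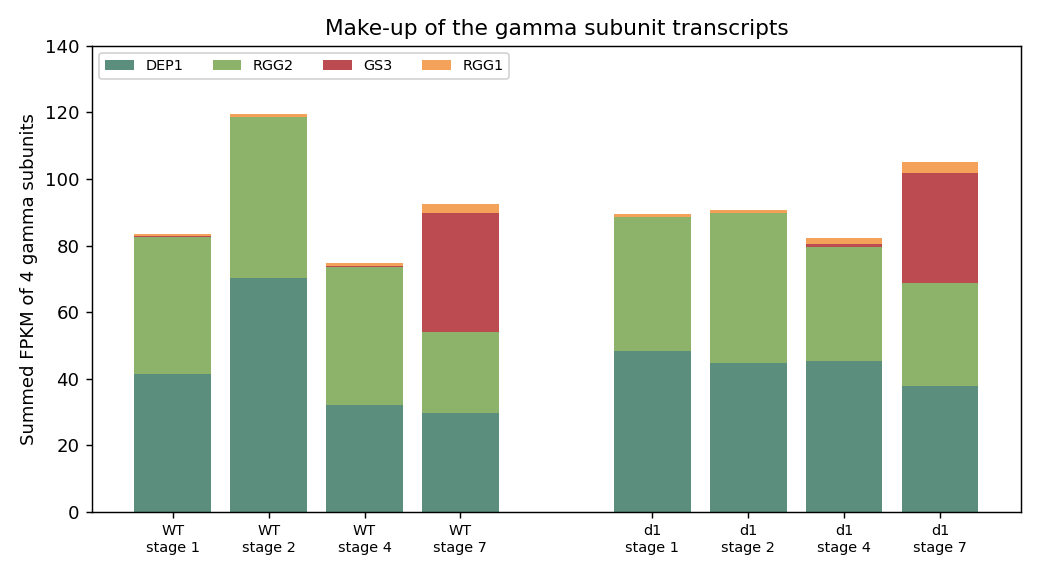
Summed FPKM of the 4 gamma members (vertical axis, from 0) in each genotype and stage, stacked by gene, without OS08G0456600; each bar is built from the authors' combined values. RGG2 and DEP1 fill the bars at stages 1, 2 and 4, and GS3 adds 35.6 FPKM (WT) and 33.0 FPKM (d1) at stage 7.

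RGG2 and DEP1 changed places between columns. Their ratio (RGG2 to DEP1) was 1.00, 0.691, 1.29 and 0.813 along the wild-type stages. The mutant ratios were 0.832, 1.01, 0.759 and 0.824. The lowest and the highest ratio both came from WT, and the d1 values lay between them.

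Genes with a profile most like each of the 3 variable gamma subunits were found by the root mean square (RMS) difference of centred log2(FPKM + 1) values over the 8 columns, among 19756 other genes. For GS3 the nearest was OS09G0507200, at an RMS difference of 0.37, listed at 0 in WT at stages 1, 2 and 4 and at 26.3 FPKM at stage 7. Its stage 7 level in d1 was 39.0 FPKM, and 0 genes came within 0.25 of GS3. For RGG2 the nearest was OS07G0650300 (RMS difference 0.07), a gene of 1.09 to 2.66 FPKM, and 2676 genes lay within 0.25. For DEP1 the nearest was OS01G0734800 (RMS difference 0.12), at 8.93, 11.3, 5.75 and 5.29 FPKM along the wild-type stages and 9.56, 8.18, 7.73 and 7.36 FPKM along the mutant ones. DEP1 had 282 genes within 0.25. The nearest was picked on the 8 columns, WT at stage 2 among them, so its highest value there is no separate support. The genes share the same 8 columns.

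Other genes tied to G protein signalling were taken from a list of 10 identifiers written down from general knowledge, of which 7 were in the table and all 7 were tested. For d1 against WT, 0 of 7 passed (limma, smallest adjusted p = 0.12, with 3 at an unadjusted p under 0.05, beside 23.7% of all genes), with differences from -0.07 to 0.39 and a median of 0.10 beside 0.01 for all genes. Over the stage series 3 of 7 passed the F test (limma), beside 21.5% of all genes, and between stages 1 and 7, 1 rose and 2 fell, beside 13.9% and 14.2% of all genes. The names of 2 could be paired through the NCBI table. COLD1, a membrane protein that interacts with RGA1 in cold sensing, ranged over 17.5 to 20.2 FPKM (WT) and 17.3 to 19.9 FPKM (d1). Its log2 difference was -0.06 ± 0.05 (adjusted p = 0.55, limma). TUD1, a U-box ubiquitin ligase that acts with RGA1 in brassinosteroid responses, ran through 50.6, 52.2, 53.9 and 45.2 FPKM in the wild type. The mutant series was 54.4, 54.1, 62.7 and 53.8 FPKM, and the log2 difference was 0.15 ± 0.05 (adjusted p = 0.15, limma), higher in d1 at all 4 stages.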

How the data were processed

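The deposited table holds FPKM values that the authors made with FastQC, Trimmomatic, TopHat2, Cufflinks and Cuffdiff on the build IRGSP-1.0, per the submitters' processing notes, with no versions given. The unit was inferred from those tools and the values. No source used here states how columns were scaled to each other. A column stands for a genotype at a stage, and the authors gave 1 combined value for its 2 libraries. The depth of each value is unknown, so no counting interval can be given. Overlapping genes and reads shared between similar genes could not be checked.

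A gene was tested where 2 or more columns reached 1 FPKM (19757 of 34302 rows), and all 6 members passed. limma (version 3.58.1, R 4.3.3, eBayes with trend) was fitted to log2(FPKM + 1) on the 8 columns with stage and genotype as terms, leaving 3 residual degrees of freedom plus 2.54 prior ones, with two-sided tests and Benjamini-Hochberg adjustment over all genes tested. A fold change on this scale understates the change of low genes. The fit was tested on simulated data. Named genes are the 6 members, the nearest profile for RGG2, DEP1 and GS3, and listed genes whose names the NCBI table (assembly ASM3414082v1) holds on the same chromosome. OS08G0456600, from the list of related genes, is given by identifier alone. The coordinates of the NCBI table are on a build other than the authors' and were not used. Members and lists were chosen with earlier results of these data known. Sequences were not used here.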

Additional observations from a re-analysis of the deposited data

Results flagged for a closer look

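In 5 cases the change of a subunit over the same step had opposite signs in WT and d1, each with 1 value per group, so the difference was not tested. For DEP1 from stage 1 to 2, the d1 change minus the WT change was -0.86 on the log2 scale, and from stage 2 to 4 it was 1.11. Both rest on the WT value of 70.1 FPKM at stage 2. For RGA1 the differences were -0.17 from stage 1 to 2 and 0.052 from stage 4 to 7, and for RGG1 from stage 1 to 2 it was -0.15. Some of these changes were near 0. RGG1 changed by -0.002 in d1, at 0.83 FPKM, and DEP1 by 0.014 in d1 from stage 2 to 4. From stage 4 to 7, RGA1 changed by -0.022 in WT and 0.030 in d1. Opposite signs were seen in 37.8% of all genes from stage 1 to 2, in 35.2% from stage 2 to 4 and in 32.8% from stage 4 to 7.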

How the results depend on the processing

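No paired analysis was possible because the columns combine the 2 libraries of a group and carry no replicate number, and for the same reason no replicate could be left out. Scaling to the same column sum was chosen after seeing the data. For d1 against WT, the number of members past the threshold was 1 (RGA1) with the stricter filter of 5 FPKM on the mean, and over all genes the count of 48 became 7 without a filter, 315 with that stricter filter, 107 with equal medians, 31 with equal sums, 7 without a trend, and 5, 5, 4 and 5 without stage 1, 2, 4 and 7. The sign turned for RGB1 with equal sums (-0.046) and without stage 7 (-0.020), for RGG2 with equal medians (0.011) and without stage 2 (0.016) or 4 (0.068), for DEP1 without stage 4 (-0.028), and for GS3 with equal medians (0.0088) and without stage 1 (0.11) or 2 (0.032), none past the threshold. For any change over the stages, 0 members passed without stage 7, where RGG1 and GS3 fell below the filter, and 1818, 2630 and 1860 of all genes passed without stage 1, 4 and 7, against 4250. From stage 1 to 2, 81 genes became 0 without a filter (2798 at an unadjusted p under 0.05, limma), 0 without stage 4 (1671 likewise) and 31 without stage 7. From stage 2 to 4, 1206 became 652 without a filter and 738 without stage 1. From stage 4 to 7, 766 became 397 and 321 in the same settings, and 1 member (GS3) passed instead of 2 with a pseudocount of 0.1, without a filter, with the stricter filter (RGG1 not tested) and without stage 1. Of the 24 differences between genotypes at single stages, 2 reached 0.5 on the log2 scale (DEP1 at stage 2 and GS3 at stage 4). Of all genes, 11.4% did so at stage 2 and 8.67% at stage 4. With a pseudocount of 0.1, 6 of the 24 did, and the share of all genes in that setting is not given here. Without DEP1, GS3 held 56.9% of the summed level of RGG1, RGG2 and GS3 in WT and 48.9% in d1 at stage 7. The cause of these shifts was not tested beyond the filter. The rises of GS3 from stages 1 and 4 to stage 7 passed in all 9 settings that tested them. Each of these settings keeps stage 7. Except in the setting without a filter, GS3 was tested only through its stage 7 values, so these passes are not independent of the filter.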
